A study of Homo sapiens with 25 samples.

Results

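The cytosolic HSP70 and HSP110 genes comprise HSPA1A, HSPA1B, HSPA6, HSPA8, HSPA4, HSPA4L, HSPA14 and HSPH1. These 8 genes were taken by symbol from the 36755 genes of the deposited expression table, and all 8 passed the filter on low values that left 22994 genes for testing. Because HSPA1A and HSPA1B are near-identical copies, their sum was also analysed. The cells were Jurkat, an established human T-cell leukaemia line, held in medium with 100%, 50%, 25%, 12.5% or 0% of a reference histidine level and collected on day 3 or day 6. Day 3 had 2 libraries at 100% and 3 each at 50%, 25%, 12.5% and 0%, and day 6 had 3 libraries each at 100%, 50% and 25% and 2 at 12.5%. No other agent or genotype is named in the labels, and day 6 at 0% was not analysed here. All libraries came from 1 cell line. The labels do not state separate cultures for the libraries of a group. A p-value here therefore covers no more than the variation among these libraries, and that variation may be technical.

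HSP70 proteins bind exposed hydrophobic stretches of unfolded polypeptides in a cycle driven by ATP. HSP40 (J-domain) proteins deliver clients and stimulate ATP hydrolysis, while HSP110 proteins, which are distant HSP70 relatives, release ADP and so reset the cycle. HSPA8 is the abundant constitutive cytosolic form, whereas HSPA1A, HSPA1B and HSPA6 are made chiefly under proteotoxic stress, when heat shock factor 1 binds alternating GAA and TTC units (heat shock elements) before their start sites. HSPH1, HSPA4 and HSPA4L are the HSP110 members, and HSPA14 is a ribosome-associated HSP70-like protein.

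Values are normalized counts per gene as deposited, with totals between 18.44 and 21.38 mega-counts per library, and the sequencing depth is not known from them. No pair of libraries held identical values. Of the T-cell markers, all 10 were detected in every group, and their summed level was 47130 to 50930 at 100% on day 3, 56970 to 59550 at 25%, 66410 to 69390 at 12.5% and 80590 to 85170 at 0%. The summed level of 5 B-cell markers was 219.9 to 272.5 at 100% and 565 to 681 at 25% on day 3. Summed erythroid (191.4 to 5042) and fibroblast (1733 to 12260) markers varied widely between libraries, also within groups. The part of any of these in the results below was not tested. On day 6, 3 libraries stood apart: replicate 3 of 100% and of 50% had 19484 and 19624 genes at 10 or more normalized counts, against at most 18723 in any other library, and replicate 2 of 25% held 18210 normalized counts of the muscle myosin gene MYH7, against at most 67.5 elsewhere. Results on day 6 that moved without these libraries are given with and without them. In these bulk samples, fewer cells carrying a transcript and less of it per cell cannot be told apart.

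The sequences before the start sites of the stress-induced genes and of HSPA8 are shown because the group means of these genes spanned the widest ranges of the 8 and these windows hold matches to heat shock element units. They come from RefSeq (GRCh38.p14), are written 5′ to 3′ on the gene's strand, and have matches to heat shock element units in capitals. A 2-unit match is GAANNTTC or TTCNNGAA, each of which reads the same on both strands, and a 3-unit match carries 1 more unit in alternation, so that it contains 2 overlapping 2-unit matches. For HSPA1A the stretch ends before the first annotated exon of GENCODE 29, for HSPA1B it ends at the same letters, short of its exon, and for HSPA8 only 30 bases around each match are given.
HSPA1A, chr6:31815293-31815463, plus strand: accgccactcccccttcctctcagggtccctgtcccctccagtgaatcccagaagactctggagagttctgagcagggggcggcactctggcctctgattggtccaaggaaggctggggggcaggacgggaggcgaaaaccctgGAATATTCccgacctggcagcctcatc
HSPA1B, chr6:31827488-31827659, plus strand: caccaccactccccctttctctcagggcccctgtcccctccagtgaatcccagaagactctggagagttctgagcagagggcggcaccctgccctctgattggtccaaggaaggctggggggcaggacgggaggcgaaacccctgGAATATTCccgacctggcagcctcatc
HSPA6, chr1:161524290-161524539, plus strand: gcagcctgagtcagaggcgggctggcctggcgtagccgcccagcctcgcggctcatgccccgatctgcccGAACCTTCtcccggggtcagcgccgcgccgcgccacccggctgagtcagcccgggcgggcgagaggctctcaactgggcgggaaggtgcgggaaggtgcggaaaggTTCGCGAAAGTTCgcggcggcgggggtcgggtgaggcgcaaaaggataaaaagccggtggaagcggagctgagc
HSPA8, chr11:123062345-123062374, minus strand: gcgagcttGAAAGTTCCAGAAcgctgcggt
HSPA8, chr11:123062170-123062199, minus strand: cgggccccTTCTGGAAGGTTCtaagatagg
HSPA1A carried the single match GAATATTC from 106 to 99 bases before its RefSeq start, and HSPA1B the same letters 105 to 98 bases before its own. Over the 250 bases before their starts the copies shared 235 of 251 aligned columns (93.6%). HSPA6 had a 3-unit match, TTCGCGAAAGTTC, from 74 to 62 bases before its start and a 2-unit match, GAACCTTC, further out. HSPA8 had 2 matches of 3 units, GAAAGTTCCAGAA from 230 to 218 bases and TTCTGGAAGGTTC from 55 to 43 bases before its start. Both lie within annotated exons of HSPA8 in GENCODE 29, which start further out than the RefSeq start. Of 3 RefSeq starts of HSPA4L, 1 had a 2-unit match (TTCTCGAA), also within an annotated exon of its gene. The windows of HSPA4 and HSPH1 had none, which says only that these letters are not in them. The window of HSPA14 was not analysed here. Among 35116 windows of the same length, 11.6% held 2 units and 0.441% held 3. The matches are descriptions of letters, not of binding.

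**Figure D1:**
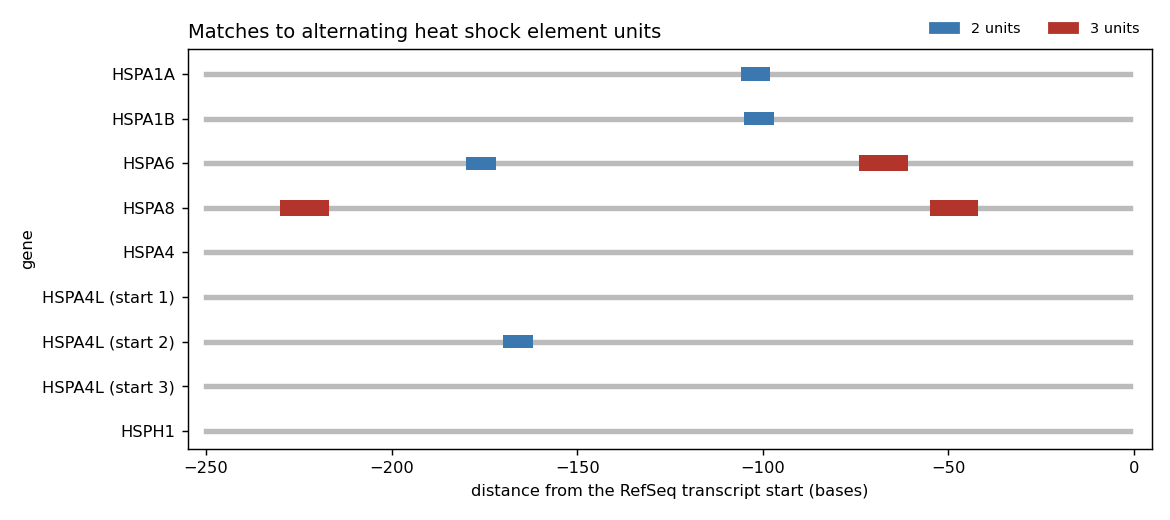
Matches to 2 (blue) or 3 (red) alternating heat shock element units in the 250 bases before each RefSeq start, with distance from the start in bases on the x axis and 1 line per start site. HSPA6 and HSPA8 have 3-unit matches, HSPA1A and HSPA1B 1 match of 2 units each, and HSPA4 and HSPH1 none. The 3-unit matches of HSPA8 lie within annotated exons of that gene.

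HSPA1A and HSPA1B encode nearly the same stress-inducible HSP70 protein and lie side by side in the class III region of the major histocompatibility complex. HSPA1A (ENSG00000204389.9) spans chromosome 6, 31815464 to 31817946, and HSPA1B (ENSG00000204388.6) spans 31827735 to 31830255, each as 1 exon (GRCh38, GENCODE 29). Their transcripts were identical at 88.4% of 2606 aligned columns, and 74.3% of the 31-base words of HSPA1A also occur in HSPA1B, so how the authors' quantification divided shared reads between them is uncertain. HSPA1B was at 21220 and 18660 normalized counts in the libraries of 100% histidine on day 3, and at 20840, 28720 and 22220 at 50%. At 25% it was at 409.9, 192.7 and 198.8, at 12.5% at 304.1, 217.1 and 234.5, and without histidine at 198.7, 230.4 and 155.3. Every library at 25% or less was thus far below every library at 50% or 100%, with no overlap. On day 6 the high level was absent in every group: HSPA1B measured 1124, 549 and 489.5 at 100%, 672.7, 386.3 and 472.3 at 50%, 311.4, 242.2 and 322.9 at 25%, and 285.3 and 340.3 at 12.5%.

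Changes were tested with limma on log2(value + 1), with p-values adjusted over all 22994 genes and a gene called changed at an adjusted p under 0.05. Log2 changes and folds are on that scale, where the added 1 makes changes of low genes smaller. They compare means of logs, so a fold can lie above or below the ratio of the group means. The sum of HSPA1A and HSPA1B was 20730 ± 1930 normalized counts (SD, n = 2) at 100% on day 3 and 24840 ± 4386 (n = 3) at 50%, and the difference between them did not pass (log2 0.25, 95% interval -0.45 to 0.95). It fell to 365.9 ± 125.9 at 25% (n = 3), 58.5-fold below 100% (log2 -5.87, SE 0.33, adjusted p = 5.31e-10). At 12.5% it was 63.2-fold lower (log2 -5.98) and at 0% it was 80-fold lower (log2 -6.32). The drop lay between 50% and 25% (log2 -6.12, SE 0.30), and the further steps did not pass (25% to 12.5% -0.11, adjusted p = 0.891; 12.5% to 0% -0.34, adjusted p = 0.495).

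HSPA1A alone was much lower than HSPA1B in the high groups, at 866.7 and 698.6 normalized counts at 100% and 824.5, 1122 and 785 at 50% on day 3. In the other groups its libraries lay between 46.92 and 191.6, with no overlap with the high groups. Its share of the pair was 3.41% to 3.92% in the 5 high libraries and 10.25% to 38.57% in the other 20. The log2 change of HSPA1A at 25% against 100% on day 3 was -2.99 (SE 0.41), against -6.31 (SE 0.35) for HSPA1B. Whether this gap lies in the copies or in how shared reads were divided was not tested, and the sum does not depend on that division.

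HSPA6, the strictly inducible HSP70B′ (ENSG00000173110.7, chromosome 1, 161524540 to 161526910, 1 exon), showed the widest range of the 8 genes. It measured 5505 and 5342 normalized counts at 100% and 6030, 7337 and 6202 at 50% on day 3. At 25% it was at 78.53, 50.09 and 35.13, at 12.5% at 32.62, 25.54 and 60.74, and at 0% at 45.14, 42.43 and 8.45. HSPA6 was 103-fold lower at 25% than at 100% (log2 -6.68, SE 0.65, adjusted p = 5.20e-07), 142.5-fold lower at 12.5% and 203.5-fold lower at 0%. The last fold leans on the library at 8.45, and the group means were 5423 at 100% and 32 at 0%. Its log2 value, -7.67, lay between -8.26 and -6.92 under other settings or with single libraries left out. On day 3 the lowest library at 100% or 50% thus stood at 5342 and the highest of the others at 78.53. Of the 31-base words of HSPA6, 56.6% also occur in its pseudogene HSPA7, whose own level was 50.95 and 62.86 at 100% and 0 to 4.57 at 25% on day 3.

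**Figure D2:**
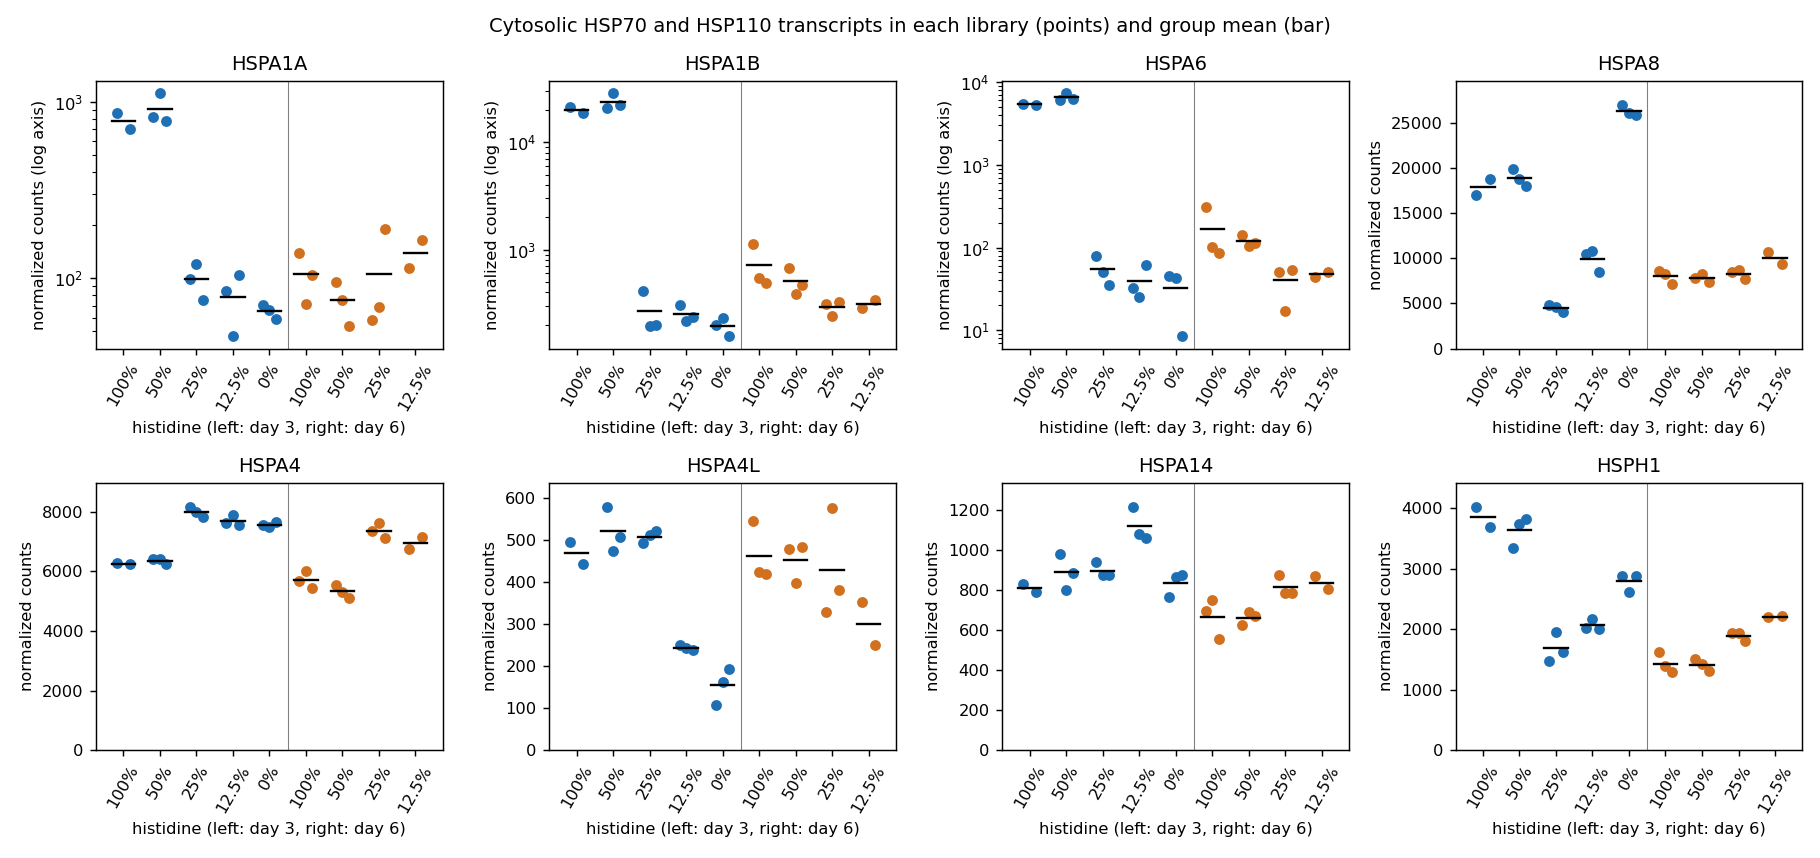
Normalized counts of each gene (y axis, logarithmic for HSPA1A, HSPA1B and HSPA6, linear from 0 for the others) in each library (points) by histidine level, with day 3 in blue and day 6 in orange and the group mean as a bar. HSPA1B and HSPA6 are high in 5 libraries of day 3 alone, and HSPA8 falls to about 4524 at 25% and is at 26340 at 0% on day 3.

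On day 6 the inducible genes started from low levels at 100%, where HSPA6 measured 308.6, 102.7 and 87.07. Replicate 1 of that group was the highest for HSPA1A, HSPA1B, HSPA6, HSPA8, HSPA4L and HSPH1, but not for HSPA4 and HSPA14. At 50% HSPA6 measured 142.6, 104.2 and 114.2, at 25% 50.5, 17.29 and 53.43, and at 12.5% 43.84 and 50.94. Against 100%, the call for HSPA1B at 25% was log2 -1.21 (SE 0.31, adjusted p = 0.00997), for HSPA6 -1.93 (SE 0.58, adjusted p = 0.0237) and for the sum -0.99 (SE 0.30, adjusted p = 0.0242). These calls rested on single libraries. Without replicate 1 of 100%, HSPA1B was at -0.84 (adjusted p = 0.0581), HSPA6 at -1.36 (0.126) and the sum at -0.64 (0.132). Without replicate 2 of 25%, HSPA6 was at -1.42 (adjusted p = 0.129) and the sum at -0.83 (0.106), and without replicate 1 of 25% the sum was at -0.95 (0.0698). At 12.5% HSPA1B was at -1.10 (SE 0.35, adjusted p = 0.0311), but at -0.73 (0.13) without replicate 1 of 100%, -0.98 (0.19) without replicate 1 of 12.5% and -1.23 (0.0931) without replicate 2. Leaving out a library of 12.5% on day 6, here and below, leaves 1 sample, which is assumed to vary like the other groups; the size of this value was larger without replicate 2 than with both. HSPA6 at 25% against 50% on day 6 (-1.70, adjusted p = 0.0454) also lost its call without any of the libraries of 50% or without replicate 1 or 2 of 25%, with values from -1.93 to -1.18 and adjusted p from 0.0506 to 0.209. With the 3 libraries that stood apart left out, HSPA6 at 25% against 100% was at -1.76 (adjusted p = 0.101) and the sum at -1.02 (0.0831), and HSPA6 at 25% against 50% at -1.215 (0.28).

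HSPA8 (ENSG00000109971.13, chromosome 11, 123057489 to 123063230, 9 exons), the constitutive HSC70 that also strips clathrin coats and serves chaperone-mediated autophagy, followed no single direction on day 3. It measured 17010 and 18830 normalized counts at 100% and 19920, 18760 and 18010 at 50%. It fell to 4852, 4619 and 4101 at 25%, stood at 10540, 10780 and 8457 at 12.5%, and reached 26980, 26150 and 25880 at 0%. The groups at 25%, 12.5% and 0% overlapped neither each other nor the groups at 100% and 50%. Against 100%, HSPA8 was 3.965-fold lower at 25% (log2 -1.99, SE 0.10, adjusted p = 2.95e-13), 1.81-fold lower at 12.5% (-0.86, adjusted p = 2.74e-07) and 1.47-fold higher at 0% (0.56, adjusted p = 6.69e-05). Each step below 50% passed: -2.06 from 50% to 25%, 1.13 from 25% to 12.5% and 1.42 from 12.5% to 0%. Of the 31-base words of HSPA8, 41.1% occur in 12 other genes, most closely in the pseudogene HSPA8P1 (15.7%).

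On day 6 HSPA8 kept to a narrow band, at 8608, 8314 and 7210 normalized counts at 100%, 7807, 8225 and 7371 at 50%, 8541, 8675 and 7664 at 25%, and 10750 and 9398 at 12.5%. The 12.5% libraries were the highest 2 of the day. Their rise over 100% (log2 0.33, SE 0.10, adjusted p = 0.0156) did not pass without replicate 3 of 100% (0.25, adjusted p = 0.0852) and also without replicate 1 of 12.5% (0.23, adjusted p = 0.238), nor with all 3 libraries that stood apart left out (0.25, adjusted p = 0.0894). The 95% interval of 25% against 100% on day 6 was -0.13 to 0.22 around 0.05.

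HSPH1 (HSP105, ENSG00000120694.19, chromosome 13, 31134974 to 31162388), the stress-responsive HSP110 exchange factor, measured 4018 and 3695 normalized counts at 100% and 3349, 3744 and 3827 at 50% on day 3. It fell to 1478, 1960 and 1627 at 25%, and was at 2020, 2165 and 2003 at 12.5% and 2881, 2621 and 2872 at 0%. Like HSPA8, HSPH1 was lowest at 25% on day 3, but at 0% it did not reach the 100% level. The changes against 100% were -1.20 (SE 0.10, adjusted p = 1.03e-09) at 25%, -0.90 at 12.5% and -0.47 (adjusted p = 0.000582) at 0%. The step from 12.5% to 0% passed (0.44, adjusted p = 0.000619). The step from 25% to 12.5% (0.30, adjusted p = 0.0373) did not pass without replicate 1 or 3 of 25% or any replicate of 12.5%, with adjusted p from 0.0654 to 0.217 and values of 0.21 to 0.32.

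On day 6 HSPH1 went the other way. It measured 1623, 1384 and 1288 normalized counts at 100%, 1507, 1418 and 1311 at 50%, 1933, 1941 and 1805 at 25%, and 2196 and 2211 at 12.5%. No library at 25% or 12.5% overlapped those at 100% or 50%. The rise against 100% was 0.41 (SE 0.09, adjusted p = 0.0013) at 25% and 0.63 (SE 0.10, adjusted p = 2.96e-05) at 12.5%.

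HSPA4 (ENSG00000170606.14, chromosome 5, 133051962 to 133106449), the constitutive HSP110 member APG-2, varied little between the libraries of a group, with a coefficient of variation of at most 5.19%. It measured 6276 and 6235 normalized counts at 100% and 6413, 6421 and 6235 at 50% on day 3. The libraries at 25% (8155, 7982 and 7834), 12.5% (7630, 7900 and 7537) and 0% (7565, 7501 and 7637) all lay above those. Against 100%, HSPA4 was higher by 0.35 (SE 0.05, adjusted p = 1.25e-05) at 25%, 0.30 at 12.5% and 0.27 at 0%. On day 6 it measured 5672, 6015 and 5426 at 100%, 5554, 5314 and 5108 at 50%, 7340, 7609 and 7129 at 25%, and 6761 and 7134 at 12.5%. The rise was 0.37 (SE 0.05, adjusted p = 1.36e-06) at 25% and 0.29 (SE 0.05, adjusted p = 0.000174) at 12.5%. HSPA4 thus rose at 25% and below on both days, and the difference between the days was 0.02 (95% interval -0.13 to 0.16) at 25% and -0.01 (-0.16 to 0.14) at 12.5%.

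HSPA4L (APG-1, ENSG00000164070.11, chromosome 4, 127781821 to 127840733), a low-level HSP110 member, changed only at the lowest histidine levels among the comparisons with 100%. It measured 493.8 and 442.6 normalized counts at 100%, 577.4, 474.1 and 506.8 at 50%, and 491.4, 510.2 and 520.4 at 25% on day 3. At 12.5% it measured 250.2, 242 and 237.1, and at 0% 108.5, 161.6 and 192.5. The fall against 100% was 1.92-fold at 12.5% (log2 -0.94, SE 0.21, adjusted p = 0.00112) and 3.1-fold at 0% (-1.63, SE 0.21, adjusted p = 7.38e-07). The step from 25% to 12.5% (-1.06, adjusted p = 0.000595) did not pass with library position in the fit (-0.59, adjusted p = 0.263). Library position, here and below, is the running number of a library in the sample list, taken in a cycle of 8. The labels name no batch, so position is an assumed grouping. Each group is a run of neighbours in the sample list, so this cycle cannot separate such a run from its group. The step from 12.5% to 0% (-0.69, adjusted p = 0.00802) did not pass without replicate 1 of 0% (-0.46, adjusted p = 0.0843). On day 6 its levels at 12.5% were 351.7 and 248.9, against 417.9 to 544.4 at 100%. That call (-0.63, adjusted p = 0.0308) was lost without replicate 2 of 12.5% (-0.38, adjusted p = 0.413) and also without replicate 1 of 100% (-0.50, adjusted p = 0.131). At 25% on day 6 the libraries of HSPA4L spread from 329.2 to 574.2, the upper value being in the library with MYH7.

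HSPA14 (HSP70L1, ENSG00000187522.15, chromosome 10, 14838164 to 14871741), which works on the ribosome with the J-domain protein DNAJC2, had group means between 663.2 and 1120 normalized counts. On day 3 it measured 831.2 and 790.8 normalized counts at 100%, 799.7 to 983.6 at 50%, 874.8 to 939.8 at 25%, 1217, 1083 and 1060 at 12.5%, and 767.4 to 876.4 at 0%. The 12.5% libraries were above all others of the 25. The rise there was 1.38-fold against 100% (log2 0.46, SE 0.11, adjusted p = 0.00243), and the step down to 0% was -0.42 (adjusted p = 0.00277). The step from 25% to 12.5% (0.32, adjusted p = 0.0484) did not pass without any single library of either group, at adjusted p from 0.0643 to 0.202. On day 6 HSPA14 measured 555 to 752.5 at 100%, 786.3 to 875.8 at 25% and 805.2 and 870.9 at 12.5%. The changes there against 100% were 0.30 (adjusted p = 0.0347) and 0.34 (adjusted p = 0.0304). The first was lost without replicate 3 of 100% (0.17, adjusted p = 0.286) and also without replicate 1 of 25% (0.25, adjusted p = 0.14). The other was lost without replicate 3 of 100% (0.21, adjusted p = 0.202), replicate 1 of 12.5% (0.28, adjusted p = 0.229) or replicate 2 of 12.5% (0.39, adjusted p = 0.0729). With the 3 libraries that stood apart left out, the values were 0.20 (adjusted p = 0.285) and 0.21 (adjusted p = 0.207).

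**Figure D3:**
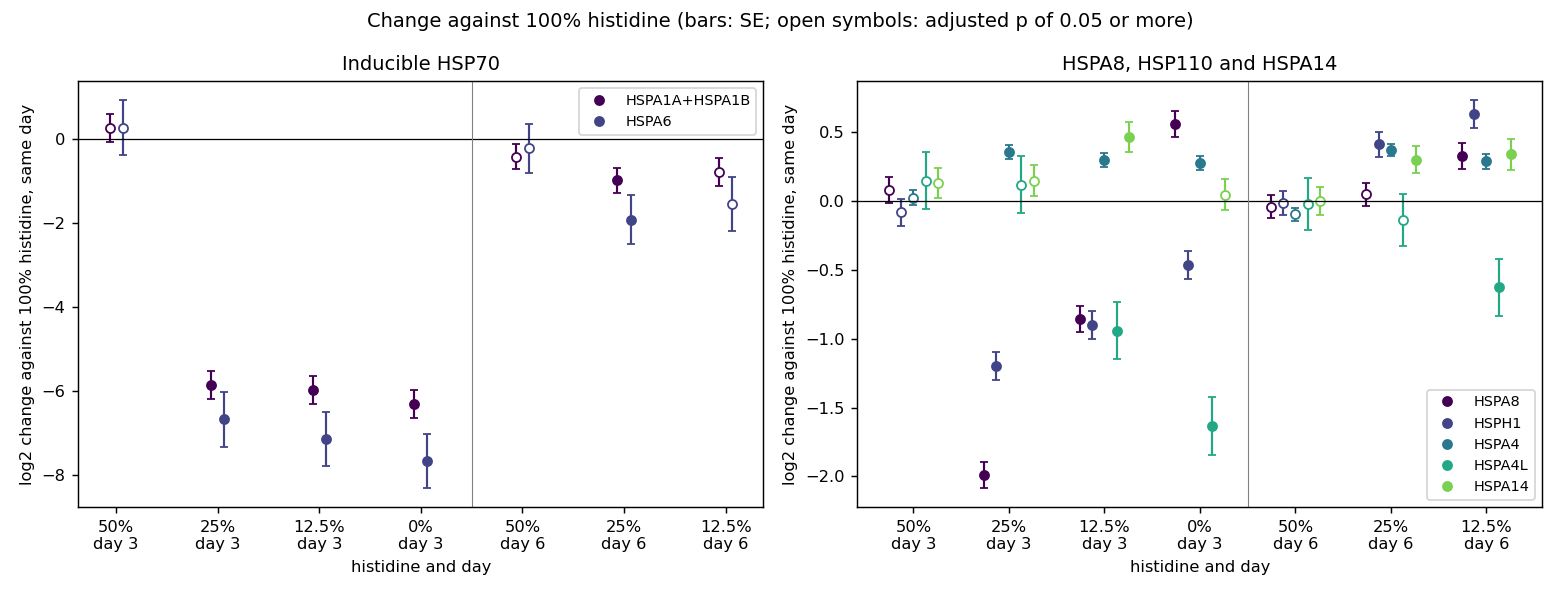
Log2 change against 100% histidine of the same day on the log2(value + 1) scale (y axis; bars are SE), for the sum of HSPA1A and HSPA1B and HSPA6 (left) and the other genes (right), by histidine level and day; open symbols did not pass. On day 3 from 25% down, the sum of HSPA1A and HSPA1B lies between -6.32 and -5.87 and HSPA6 between -7.67 and -6.68, HSPA8 runs from -1.99 at 25% to 0.56 at 0%, and HSPA4 stays near 0.3.

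Counted together, 6 of the 8 genes were called at 25% against 100% on day 3, 5 lower and 1 higher, where 19.5% of all genes tested were called, 9.72% lower and 9.81% higher. The median log2 change of the 8 was -1.59, against -0.0036 over all genes tested. In this median and in all counts here and below, HSPA1A and HSPA1B enter as 2 genes. The division of shared reads between them is uncertain, so their calls are not independent. At 12.5% all 8 were called, 6 lower and 2 higher (26.2% of all genes, 12% lower and 14.2% higher). At 0% 7 were called, 5 lower and 2 higher (31% of all genes, 16.1% lower and 14.8% higher), HSPA14 being the exception. Between 50% and 100% none was called by limma, nor was any gene (0%), with 1075 genes at an unadjusted p under 0.05. Between 50% and 25%, 6 were called, 5 lower and 1 higher (23.8% of all genes, 12.5% lower and 11.4% higher). From 25% to 12.5% 4 were called, HSPA8, HSPA14 and HSPH1 higher and HSPA4L lower (8.22% of all genes, 5.41% higher and 2.81% lower). HSPA4 was not called there (-0.056, adjusted p = 0.559) but was lower under total-sum scaling (-0.14, adjusted p = 0.0234) and quantile normalization (-0.20, adjusted p = 0.00197). From 12.5% to 0% 4 were called, HSPA8 and HSPH1 higher and HSPA4L and HSPA14 lower (21% of all genes, 8.5% higher and 12.5% lower).

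On day 6, 5 of the 8 were called at 25% against 100%, HSPA4, HSPA14 and HSPH1 higher and HSPA1B and HSPA6 lower, where 20.2% of all genes were called, 11% higher and 9.24% lower. At 12.5% 6 were called, HSPA8, HSPA4, HSPA14 and HSPH1 higher and HSPA1B and HSPA4L lower (21.9% of all genes, 10.8% higher and 11.1% lower). Between 25% and 50%, 4 were called, HSPA4, HSPA14 and HSPH1 higher and HSPA6 lower (20.9% of all genes, 10.6% higher and 10.3% lower). HSPA14 among them (0.30, adjusted p = 0.0334) lost its call without replicate 1 (0.26, adjusted p = 0.116) or 3 (0.31, adjusted p = 0.0667) of 50% or replicate 1 of 25% (0.25, adjusted p = 0.136). HSPH1 (0.42, adjusted p = 0.000894) did not pass with library position in the fit (0.32, adjusted p = 0.114). The comparison of 50% with 100% called none of the 8 (0.00435% of all genes, with 1098 at an unadjusted p under 0.05). None of the 8 passed between 25% and 12.5% (0.874% of all genes, with 2432 at an unadjusted p under 0.05). Without replicate 1 of 100%, 3 of the 8 were called at 25%. Over all genes, 4645 were called there with all libraries and 3682 to 4241 with any 1 library of either group left out. Leaving out a library of 12.5% leaves 1 sample, so the count at 12.5% is not compared here.

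Comparing days at the same histidine level, 5 of the 8 were lower on day 6 than on day 3 at 100% (8.66% of all genes were called, 5.73% lower). They were HSPA1A (log2 -2.92), HSPA1B (-4.89), HSPA6 (-5.26), HSPA8 (-1.16) and HSPH1 (-1.43), and the sum of the pair was 26.6-fold lower. At 50%, 7 were lower, with HSPA4 and HSPA14 added to those 5 (16% of all genes, 9.86% lower), and the sum was 42.95-fold lower. HSPA4 at 50% (-0.26, adjusted p = 0.000281) was at -0.11 (adjusted p = 0.0504) under quantile normalization. At 25% only HSPA8 was called, higher by 0.88 (SE 0.09, adjusted p = 3.99e-07), where 11.8% of all genes were called and 5.04% were higher. HSPH1 at 25% (0.17, adjusted p = 0.244) passed without replicate 2 of 25% on day 3 (0.29, adjusted p = 0.0366). At 12.5% only HSPA14 was called, lower by -0.42 (adjusted p = 0.0121), where 13.8% of all genes were called and 10.2% were lower. That call was lost without replicate 1 of 12.5% on day 3 (-0.36, adjusted p = 0.0632) and also without replicate 2 of 12.5% on day 6 (-0.36, adjusted p = 0.151). HSPA14 at 100% (-0.29, adjusted p = 0.113) passed without replicate 2 of 100% on day 6 (-0.38, adjusted p = 0.0434).

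The change at 25% against 100% was then compared between the days as an interaction. It differed for 5 of the 8, HSPA1A, HSPA1B, HSPA6, HSPA8 and HSPH1, each less negative or more positive on day 6 (4.72% of all genes were called, 2.71% higher). At 12.5% the interaction passed for 5, again HSPA1A, HSPA1B, HSPA6, HSPA8 and HSPH1 (3.64% of all genes, 1.28% higher). For 50% against 100% none of the 8 passed (0.00435% of all genes, with 906 at an unadjusted p under 0.05). These interactions share the 100% libraries of day 3, in which the inducible genes were high, and those of day 6, in which they were low.

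For a per-length scale, normalized counts were divided by the length of 1 GENCODE transcript per gene, the longest coding one marked as principal. Lengths were 10.79 kb for HSPA4L, 5.191 kb for HSPH1, 4.825 kb for HSPA4 and 2.463 kb for HSPA8. Which transcripts were expressed was not analysed, and the levels and shares below depend on these lengths. Per kb, HSPA1B (7910) and HSPA8 (7276) had the highest mean levels of the 8 at 100% on day 3. They were followed by HSPA6 at 2287, HSPA4 at 1296, HSPH1 at 742.9, HSPA14 at 425.9, HSPA1A at 315.2 and HSPA4L at 43.39. At 25% on day 3 HSPA8 (1837) and HSPA4 (1656) were close, and HSPA1B was at 106. Without histidine HSPA8 reached 10690 per kb. The summed level of the 8 was 20040 to 20550 per kb in the libraries at 100% on day 3, 4234 to 4720 at 25%, 6121 to 7138 at 12.5% and 13210 to 13620 at 0%.

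The makeup of that sum differed between the histidine levels of day 3 and, at 100%, between the days. HSPA1A, HSPA1B and HSPA6 together made 49.6% to 53.95% of it at 100% and 51.2% to 59.6% at 50% on day 3. Their share was 2.93% to 4.997% at 25%, 1.62% to 2.62% at 12.5% and 0.672% to 1.02% at 0%. HSPA8 made 33.6% to 38.15% at 100%, 39.3% to 41.7% at 25% and 79.5% to 80.45% at 0%. The HSP110 genes HSPA4, HSPA4L and HSPH1 made 42.8% to 46.9% at 25% on day 3, their highest share among the groups, against 10.2% to 10.3% at 100%. On day 6 the inducible share was 5.16% to 10.5% at 100% and 2.16% to 4.06% at 25%, and HSPA8 held 55.4% to 63.7% across the groups.

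**Figure D4:**
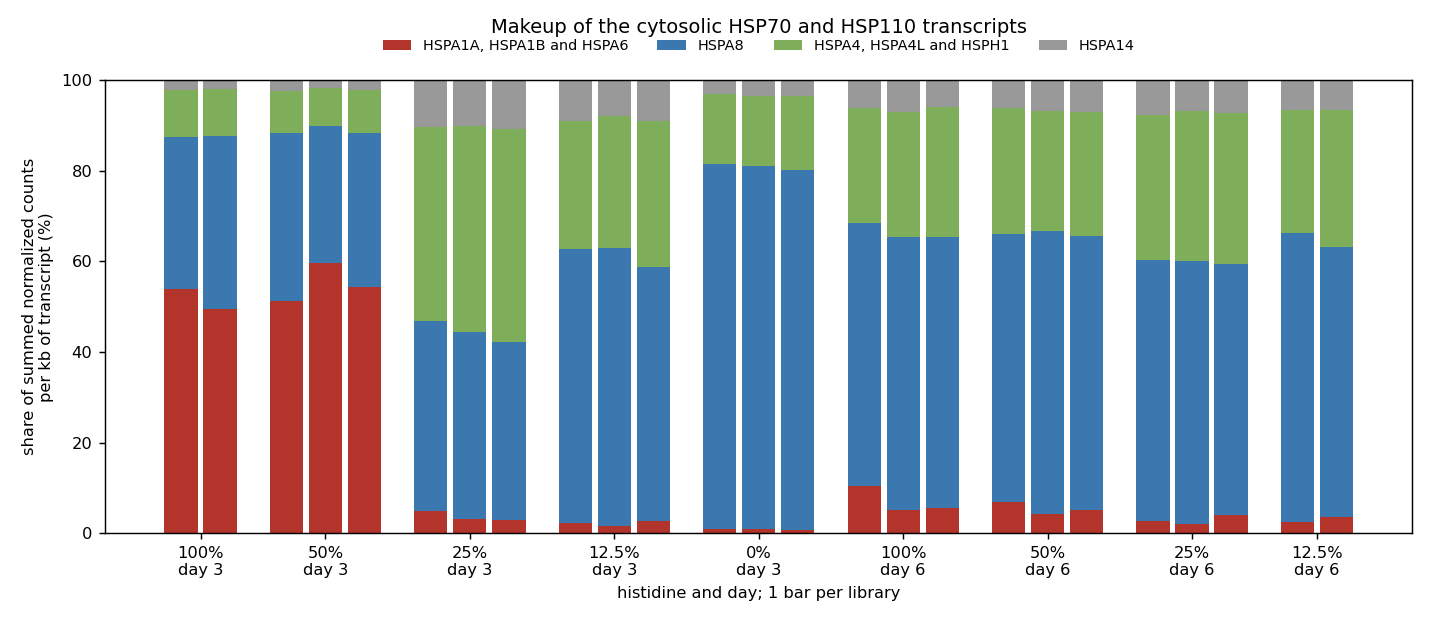
Share of the summed normalized counts per kb of the 8 genes (y axis, %) taken by the inducible genes, HSPA8, the HSP110 genes and HSPA14, with 1 stacked bar per library by histidine level and day. The inducible genes make 49.6% to 59.6% in the 5 libraries at 100% and 50% on day 3 and at most 10.5% in the others.

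Across the 9 group means, on the log2 scale, HSPA1B and HSPA6 had a Pearson r of 0.996 with each other, HSPA8 had its closest member in HSPH1 (0.816), and HSPA4 in HSPA14 (0.78). HSPA8 and HSPA6 had an r of 0.423. The points share libraries and scaling, and these values are descriptions. The levels of HSPA8 ordered as 0%, 50% and 100% on day 3, then 12.5% on day 6, 12.5% on day 3, 25%, 100% and 50% on day 6, and last 25% on day 3. Among neighbours in that order, the libraries of 50% and 100% on day 3 overlapped, as did the neighbouring groups from 12.5% on day 6 to 50% on day 6. For the sum of HSPA1A and HSPA1B only the step from the 2 high groups to 100% on day 6 separated neighbours. Of 11213 genes with a mean of at least 100, the 8 members left out, those whose 9 group means correlated most with the sum were NETO2 (r = 0.986), ELOVL5 (0.985), ACSL4 (0.984), NKRF (0.982) and GADD45B (0.981). For HSPA8 they were UBA1 (0.989), RBM12 (0.982), UBAP2L (0.981), AKT2 (0.978) and KCNAB2 (0.977), and for HSPA4 ZC3HC1 (0.98), HNRNPK (0.977), MARCHF5 (0.975), CHMP2B (0.973) and SLC35A1 (0.971).

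The HSP40 partners were followed in a list of 10 genes, of which 3 fell and 1 rose at 25% against 100% on day 3 (median log2 -0.25, against -0.0036 over all genes, of which 9.72% fell and 9.81% rose). DNAJB1, the main stress-inducible HSP40, measured 24180 ± 368.9 normalized counts (SD, n = 2) at 100% and 2466 ± 130.1 (n = 3) at 25%, a log2 change of -3.29 (SE 0.09, adjusted p = 4.02e-19). It was still down at 12.5% (-3.09) and 0% (-2.92), and at 100% on day 6 it stood at 2596 ± 421.4 (n = 3). DNAJB4 fell too (-2.17), as did DNAJA1 (-1.08), a farnesylated partner of HSPA8. DNAJA1 measured 4821 ± 189.6 at 100%, 2284 ± 107.4 at 25%, 3794 ± 429 at 12.5% and 7174 ± 306.4 at 0% on day 3, the last a rise over 100% (0.57, adjusted p = 6.60e-06). DNAJB2 rose (0.74 at 25%). At 0% 3 of the 10 were higher and 2 lower, where 14.8% of all genes were higher and 16.1% lower. On day 6 at 25% 4 were higher and 1 lower, where 11% of all genes were higher and 9.24% lower. The share of the list that rose at 25% on day 3 is near that over all genes. So are the shares that were lower at 0% on day 3 and at 25% on day 6.

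Among 10 exchange factors and other cofactors, 3 fell and 1 rose at 25% against 100% on day 3 (median -0.07), where 9.72% of all genes fell and 9.81% rose, so that the share that rose is near that over all genes. BAG3, which links HSP70 to autophagy and is itself stress-induced, fell from 1951 ± 146 to 668.1 ± 36.01 normalized counts (-1.54, adjusted p = 1.60e-11). BAG1 (-0.75) and ST13 (-0.28), the HSP70-interacting protein HIP, also fell. STUB1, the ubiquitin ligase CHIP, rose (0.52). At 0% ST13 was higher than at 100% (0.63, adjusted p = 6.37e-09), at 13080 ± 96.78 against 8482 ± 106.5. At 100% histidine, 5 of the 10 were lower on day 6 than on day 3 and none was higher, where 5.73% of all genes were lower.

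The list of heat shock factors, HSP90 and other heat shock genes held 16 members, of which 10 fell and 1 rose at 25% against 100% on day 3 (median -0.64), where 9.72% of all genes fell and 9.81% rose. HSP90AA1, the inducible cytosolic HSP90, fell from 53040 ± 1124 to 23650 ± 1305 normalized counts (-1.17, SE 0.07, adjusted p = 2.60e-12), and was at -0.42 at 0%. SERPINH1, the collagen chaperone HSP47, fell (-2.01), as did HSPE1, the mitochondrial HSP10 (-1.245), and IER5, a regulator of heat shock factor 1 (-1.15). HSF1 itself, named after its values had been seen, rose (0.41, adjusted p = 1.95e-05) at 25%. At 100%, 11 of the 16 were lower on day 6 than on day 3 and none was higher, where 5.73% of all genes were lower. The interaction between days at 25% passed for 13, 12 of them higher, where 4.72% of all genes passed and 2.71% were higher.

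The 9 other HSP70 family genes, which are not cytosolic stress forms or are low here, went different ways. At 25% against 100% on day 3, 3 fell and 2 rose, where 9.72% of all genes fell and 9.81% rose. HSPA5 (BiP), the endoplasmic reticulum HSP70, fell from 11990 ± 262.3 to 5311 ± 166.4 normalized counts on day 3 (-1.175), and on day 6 went from 35060 ± 7845 at 100% and 45150 ± 3573 at 50% to 5774 ± 656.3 at 25% (-2.585 against 100%, adjusted p = 9.29e-13). HSPA5 was thus higher at 100% on day 6 than on day 3 (1.525), where HSPA1B, HSPA6 and HSPA8 were lower. HYOU1, an HSP110-like protein of the endoplasmic reticulum, rose at 25% on day 3 (0.56) and fell at 25% on day 6 (-0.70). HSPA9, the mitochondrial HSP70 mortalin, rose on day 3 at 25% (0.47), 12.5% (0.66) and 0% (0.70), and HSPA13 rose at 12.5% (0.52) and 0% (0.43). HSPA2, a testis-enriched HSP70, fell from 63.29 ± 10 to 25.83 ± 6.90 (-1.28, adjusted p = 0.0302), and the pseudogene HSPA7 fell as given above. HSPA12A, HSPA12B and HSPA1L did not pass at 25%, with log2 values of -0.19, -0.58 and -0.16. The 4 lists were chosen with earlier results of these data known, so their counts are descriptions.

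**Figure D5:**
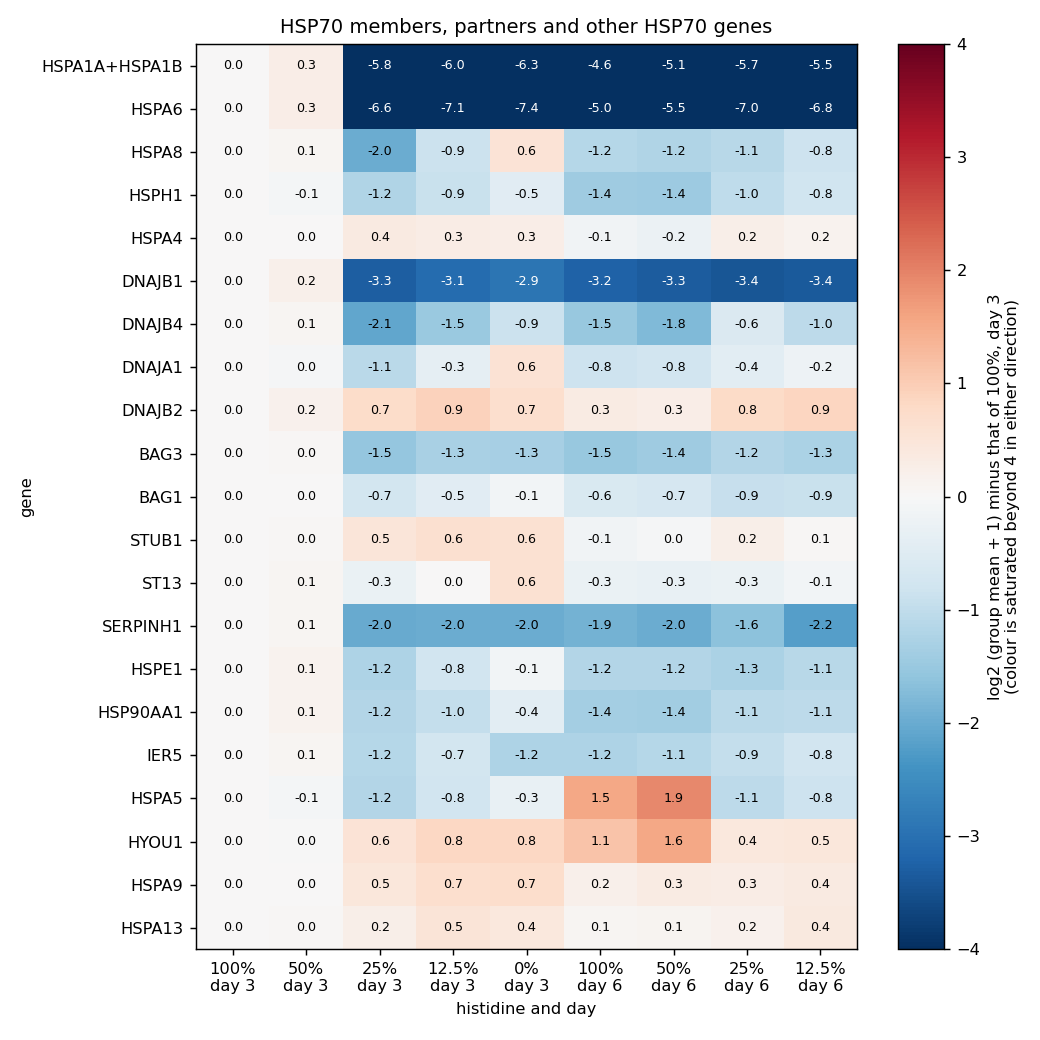
Log2 of each group mean plus 1, minus that of 100% histidine on day 3 (numbers and colour, saturated beyond 4), for HSP70 members, partners and other HSP70 genes (rows) by histidine level and day (columns). DNAJB1, BAG3 and SERPINH1 are low wherever the sum of HSPA1A and HSPA1B is low, while HSPA5 and HYOU1 are highest at 100% and 50% on day 6.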

How the data were processed

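The 25 libraries hold strand-specific RNA-seq of Jurkat cells. The submitters' processing notes name kallisto 0.50.1, DESeq2 1.44.0, FastQC 0.11.9 and the build GRCh38. What each tool did is not given in the sources used here. Per the labels and the table itself, the authors deposited a normalized signal, that is, counts per gene scaled by library. Whole reads could not be recovered from them, so no count model was run and depth and counting error are unknown.

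All 9 groups entered 1 limma 3.58.1 fit (R 4.3.3, statmod 1.5.0) of log2(value + 1) with 1 mean per group and moderation of variances with trend and robust options, on genes at 10 or more in at least 2 libraries. Benjamini-Hochberg adjustment ran over 22994 genes in each of 19 comparisons. The fit was tested on simulated data. A second fit replaced HSPA1A and HSPA1B by their sum. The replicates of a group were compared with each other and none were identical.

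The members and lists were chosen with earlier results of these data known. The text names the members in every comparison, from each of 4 lists at most 4 genes called with the largest change at 25% against 100% on day 3, all tested genes of the list of other HSP70 genes, and the 5 genes most like the sum, HSPA8 and HSPA4. Coordinates and transcripts are from GENCODE 29. Sequences are from RefSeq (GRCh38.p14), aligned with Biopython 1.88; promoter windows were found for 7 of the 8 genes. The alternatives were other pseudocounts, no filter, other scalings, fewer groups, replicate and library position blocks, no trend or robust option, and libraries left out. The position block cycles through 8 places in the sample list and is assumed, since no label names a batch. It cannot separate a run of neighbouring libraries from the groups.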

Additional observations from a re-analysis of the deposited data

Results flagged for a closer look

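The change against 100% histidine differed between day 6 and day 3 for 5 genes and for the sum of HSPA1A and HSPA1B, by the interaction term of the limma fit with adjustment over all genes. At 25% histidine the difference (day 6 minus day 3, log2) was 2.84 for HSPA1A (SE 0.54, adjusted p = 0.00254), 5.10 for HSPA1B, 4.755 for HSPA6 and 4.88 for the sum. It was 2.03 for HSPA8 (SE 0.13, adjusted p = 5.11e-10) and 1.61 for HSPH1 (SE 0.13, adjusted p = 1.41e-08). At 12.5% it was 3.79 for HSPA1A, 5.21 for HSPA1B, 5.60 for HSPA6 and 5.19 for the sum, and 1.18 for HSPA8 (SE 0.14, adjusted p = 7.81e-06) and 1.53 for HSPH1. The inducible genes were high at 100% on day 3 and low at 100% on day 6, and the 12 differences share those 100% libraries. For HSPH1 the change was a fall on day 3 (-1.20 at 25%) and a rise on day 6 (0.41).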

How the results depend on the processing

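In the main fit 83 of 171 values of the members and the sum were called. Over the alternatives, 2634 of 2727 values kept their status, called or not called, while 86 lost a call and 7 gained a call. None with a call changed sign, while 84 values without a call changed sign. Of 83 calls, 66 held in every alternative, among them all those of HSPA1B, HSPA6, HSPA8 and the sum against 100% on day 3 and every interaction call.

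Counts of members called moved by over 1.5 times as follows. For 25% against 50% on day 6 (4) the count was 2 without the filter and 1 with library position in the fit. For 25% against 100% on day 6 (5) it was 3 with only the groups compared, with position in the fit, or without the 3 day 6 libraries that stood apart. For 12.5% against 25% on day 3 (4) it was 1 with position and 2 without trend and robust options. For 12.5% against 100% on day 6 (6) it was 3 without those options. For day 6 against day 3 at 12.5% (1) it was 0 under total-sum scaling and quantile normalization, 2 with the replicate block and 2 without the 3 libraries. Calls over all genes tested fell as well with position in the fit. On day 6 they went from 4807 to 2432 for 25% against 50% and from 4645 to 3012 for 25% against 100%. On day 3 they went from 1889 to 238 for 12.5% against 25%. For 12.5% against 100% on day 6 (5036) they stayed between 4514 and 5604 in settings other than single libraries left out.

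Leaving out each library in turn gave 2 to 3 for 12.5% against 25% on day 3, 3 to 4 for 0% against 12.5%, 3 to 5 for 25% and 3 to 6 for 12.5% against 100% on day 6, 2 to 4 for 25% against 50% on day 6, and for day 6 against day 3 5 to 6 at 100%, 1 to 2 at 25% and 0 to 1 at 12.5%. Other counts of members did not move. Leaving out a library of 100% on day 3 or of 12.5% on day 6 leaves 1 sample in that group. Over all genes tested, leaving out single libraries lowered the counts as well. They were 1138 to 1452 for 12.5% against 25% on day 3 (1889 with all libraries) and 4066 to 4238 for 0% against 12.5% (4818). On day 6 they were 3682 to 4241 for 25% against 100% (4645) and 3829 to 4287 for 25% against 50% (4807). Between days at 25% they were 1739 to 2493 (2711).

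No pairing by replicate number was seen, although so few libraries per group cannot exclude it. Same-numbered libraries had deviations correlated between -0.106 and 0.192 (92 pairs, median 0.0013), with 1 pair over 0.1. Libraries of other numbers had values between -0.152 and 0.106 (185 pairs, median 0.0004), also with 1 pair over 0.1. With the replicate block HSPA14 at 12.5% against 25% on day 3 was at 0.32 with an adjusted p of 0.0503, and HSPA4 on day 6 against day 3 at 12.5% was at -0.16 (adjusted p = 0.0319).

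Total-sum scaling shifted the median of all genes by 0.114, 0.108 and 0.103 log2 in day 6 against day 3 at 100%, 50% and 12.5%, and the share of called genes that were higher from 33.8% to 69.9%, 38.4% to 65.6% and 25.8% to 51.7% there. The same share went from 50.2% to 63.3% at 25% against 100% on day 3, from 47.7% to 64.02% at 25% against 50%, from 65.8% to 35.4% at 12.5% against 25% and from 57.5% to 32.99% in the interaction at 25%. Over all genes, 4490 calls at 25% against 100% on day 3 became 2350 with position in the fit and 2954 without replicate 3 of 100%, and 1991 calls between days at 100% became 720 and 588. The cause of these moves was not tested. Depth is unknown, so the low values of HSPA1A, HSPA6 and HSPA7 carry an unknown counting error.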

Other observations

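In replicate 2 of 25% histidine on day 6, several processed or normally silent relatives of the HSP70 genes stood far above the other 24 libraries. HSPA1L, a testis-enriched neighbour of HSPA1A, was at 281.9 normalized counts against at most 19.64. The pseudogenes HSPA8P14, HSPA5P1 and HSPA9P1 were at 208.4, 113.9 and 125.1, against at most 17, 8.27 and 3.195. CRYAB, a small heat shock protein of muscle and lens, was at 1499 against at most 297.7, in the same library that held 18210 of MYH7. Among the cytosolic HSP70 and HSP110 genes, HSPA1B (242.2) and HSPA6 (17.29) were lowest of their group there, and HSPA4L (574.2), HSPA4 (7609), HSPA8 (8675) and HSPH1 (1941) highest. The cause was not tested.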
